A study of Mus musculus with 16 samples.

Results

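The ribosomal protein genes were followed through mouse gut endoderm between visceral endoderm and the gut tube. Members were the genes whose symbol starts with Rpl or Rps and a digit, together with Rpsa and Rplp0, Rplp1 and Rplp2, without pseudogene symbols and the Rps6k kinases, that had at least 100 counts in every library. The rule kept 83 of 26761 gene symbols: 46 genes of the large (60S) subunit, 31 of the small (40S) subunit, 5 variants of such genes (Rpl22l1, Rpl36al, Rpl7l1, Rps27l and Rps27rt), and Rps19bp1, which encodes a nucleolar protein that binds Rps19 and is not part of the ribosome. All 83 also passed the low-count filter of the test. Another 4 symbols of the rule, all variants, fell under the count minimum: Rpl10l and Rpl3l reached at most 20 and 50 counts, Rpl39l between 0 and 191 with its highest count in extraembryonic visceral endoderm, and Rpl6l between 12 in embryonic visceral endoderm and 269 in an anterior gut section. The members closest above the minimum were Rps27rt, with 213 to 510 counts, and Rps19bp1, with 1316 to 5138.

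The ribosome is built from ribosomal RNAs and a set of proteins most of which are present once, and their genes are usually expressed together. The small subunit reads the messenger RNA, and the large subunit joins amino acids and passes the chain out through its exit tunnel. Ribosomal protein messenger RNAs begin with a pyrimidine run, the 5′ terminal oligopyrimidine (TOP) motif, through which mTOR signalling and the TOP-binding protein Larp1 set their translation. Dose matters in embryos: loss of a single copy of several members gives skeletal, pigment or blood defects, with p53 activation.

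RNA was sequenced from 16 libraries in 8 groups of 2. The 2 groups of embryonic day (E) 7.5 were extraembryonic visceral endoderm (exVE), which covers the extraembryonic part of the conceptus, and embryonic visceral endoderm (emVE), which covers the epiblast. The other 6 groups were of E8.75, at 13 somites: the whole gut tube as undissociated bulk tissue, the whole tube as dissociated cells (20 min in enzymes at 37 °C), and 4 sections along its length named anterior, anterior-midgut, midgut-posterior and posterior. All embryos came from natural matings of dams 6 to 8 weeks old; the protocols describe an Afp-GFP transgene in the embryos used for single cells and do not say whether these libraries carry it. The sources used here do not state strain, sex, the number of embryos in a library or whether the 2 libraries of a group came from separate embryos, so p-values measure only the spread between these libraries. Each library held between 57061536 and 84509973 counts, of polyadenylated RNA. Levels are given as CPM, counts relative to the library total after scaling with edgeR's TMM factors, which correct for RNA composition, and they are read across libraries for 1 gene and not between genes.

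Marker genes followed the labels. Summed visceral endoderm markers (8 genes, Afp and Ttr among them) were at 11908 to 12132 CPM in emVE, 30517 to 31690 CPM in exVE and 102 to 5665 CPM in the gut libraries. The 4 anterior markers (Nkx2-1 and others) summed to 168 to 339 CPM in the anterior section and to at most 55.7 CPM in the other sections, and the 5 posterior markers (Cdx2 and others) to 564 to 782 CPM in the posterior section and to at most 122 CPM in the other sections. Other tissue was present: blood markers (7 genes) summed to 275 to 1052 CPM and endothelial markers (5 genes) to 181 to 646 CPM in the gut libraries. Heart markers summed to 1563 and 1233 CPM in the anterior-midgut section and to 13.5 CPM in each posterior library. Markers listed for trophoblast summed to 336 and 214 CPM in the posterior and 5.34 and 7.88 CPM in the anterior section. In these bulk samples fewer cells of a type and less RNA per cell cannot be told apart. Dissociated replicate 2 stood apart from dissociated replicate 1: heart markers (5 genes) were at 1715 against 173 CPM, endothelial markers at 181 against 541 CPM, and endoderm epithelium markers (7 genes) at 3129 against 1672 CPM. Results that rest on it are therefore also given without it.

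The family took a larger part of the messenger RNA pool in the gut tube than in visceral endoderm. Its 83 genes held 3.96% and 3.69% of all counts in exVE, library by library, against 4.51% and 4.43% in emVE. Bulk gut tube had 6.01% and 5.55%, and the 8 section libraries lay between 5.81% and 6.91%. Dissociated cells had 5.94% and 8.52%, and the second of these was the highest of all 16 libraries. The 12 gut libraries did not overlap the 4 of visceral endoderm. Counts of large subunit genes exceeded those of small subunit genes by a factor of 1.23 to 1.31 in the gut, 1.37 and 1.43 in emVE and 1.44 and 1.50 in exVE, so the small subunit genes held a smaller part of the family in visceral endoderm. Mitochondrially encoded genes, which share the same total, took 0.959% to 2.63% in the gut and 4.77% to 6.65% in visceral endoderm.

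**Figure D1:**
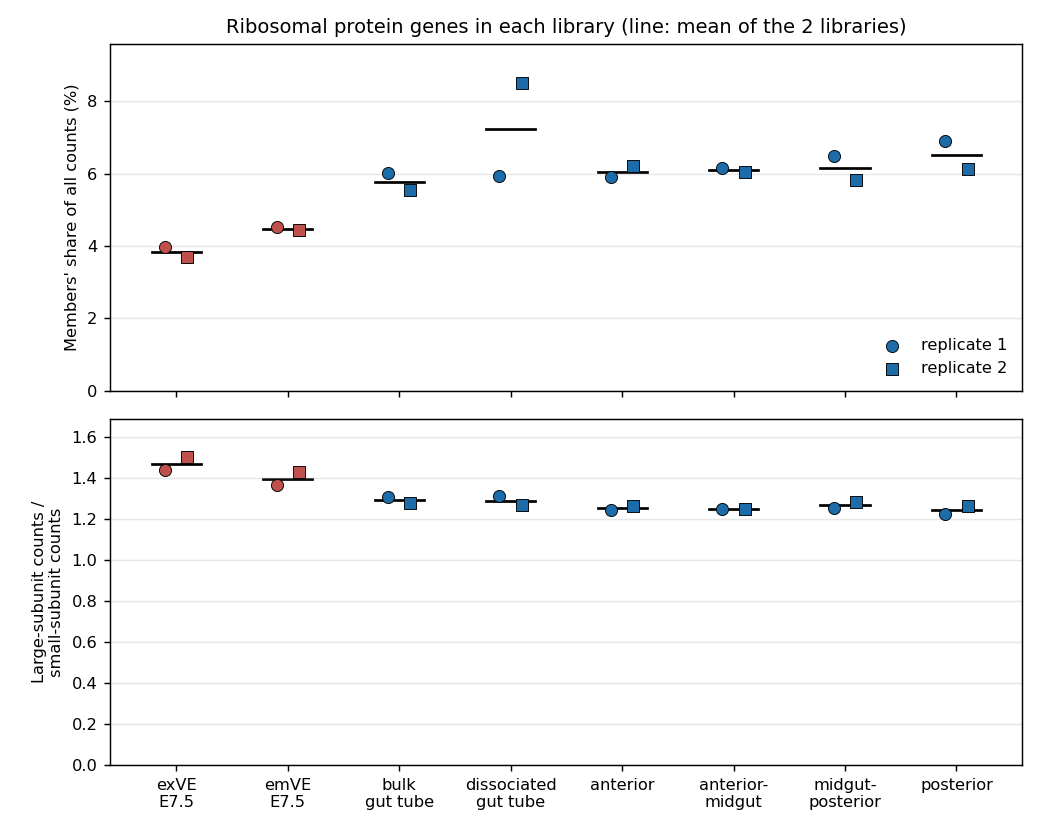
Share of all counts held by the 83 genes (upper panel, percent) and the ratio of large to small subunit counts (lower panel) in each library, with circles for replicate 1, squares for replicate 2 and a line for the group mean. The 12 gut libraries lie at 5.55% or more and the 4 visceral endoderm libraries at 4.51% or less, with dissociated replicate 2 on top at 8.52%.

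Between emVE at E7.5 and the bulk gut tube at E8.75 members that rose outnumbered those that fell, and Rpl22l1, Rps14 and Rpl38 rose most while Rpl23a, Rps29 and Rps26 fell most. Of the 83 members 33 were higher and 9 lower in the gut tube (edgeR's quasi-likelihood test, adjusted p under 0.05), where 21.7% of all 17313 genes tested were higher and 16.9% lower. By role, 16 of 46 large subunit genes rose and 5 fell, 14 of 31 small subunit genes rose and 4 fell, and 3 of the 5 variants rose. The members' median log2 change was 0.38, beside 0.08 over all genes, and 64 of the 83 changes were above 0. Without dissociated replicate 2, which enters the shared estimate of spread, 48 members were higher and 12 lower, where 25.5% of all genes were higher and 19.9% lower. Stage, tissue, preparation and the mixture of cells all differ between these groups and cannot be told apart: blood markers summed to 447 and 764 CPM in bulk gut tube and to 11.9 and 10.8 CPM in emVE (3 of 7 at 0), and endothelial markers to 313 and 321 CPM against 11.1 and 21.8 CPM (1 of 5 at 0). Their part in the members' changes was not tested.

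The start regions of members from both sides of that comparison are shown so that the motifs counted over the family can be seen in place. Each line gives 60 bases before and 20 bases from the transcription start in the RefSeq promoter table (build GRCm38.p6), 5′ to 3′ on the gene's strand. Capitals mark letters of 3 searched motifs: the ETS-factor core CCGGAAG, the TATA box letters TATAAA (in Rpl22l1 on both strands, overlapping) and the pyrimidine stretch CTCTTTC.
Rpl22l1, chr3:28805448-28805527, plus strand: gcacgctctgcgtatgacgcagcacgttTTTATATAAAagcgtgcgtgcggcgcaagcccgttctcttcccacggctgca
Rpl38, chr11:114668520-114668599, plus strand: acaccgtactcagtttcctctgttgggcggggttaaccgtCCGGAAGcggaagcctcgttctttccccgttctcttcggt
Rps21, chr2:180257319-180257398, plus strand: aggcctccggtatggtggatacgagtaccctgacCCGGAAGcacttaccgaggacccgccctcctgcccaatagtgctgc
Rps27l, chr9:66946026-66946105, plus strand: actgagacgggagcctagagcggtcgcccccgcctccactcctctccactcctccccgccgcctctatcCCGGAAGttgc
Rps26, chr10:128626487-128626566, minus strand: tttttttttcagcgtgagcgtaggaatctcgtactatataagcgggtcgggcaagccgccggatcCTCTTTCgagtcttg
Rpl28, chr7:4792905-4792984, plus strand: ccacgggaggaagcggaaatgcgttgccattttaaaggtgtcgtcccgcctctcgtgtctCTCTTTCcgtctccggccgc
The first 4 genes were higher in the gut tube and the last 2 were lower. Rpl22l1 has the TATA letters upstream of its start, Rpl38, Rps21 and Rps27l have the ETS letters near it, and in Rps26 and Rpl28 the pyrimidine letters lie close to the start. These 6 are shown because they carry the letters, while the windows of Rpl39 and Rpl35a, which were also higher, hold none of the 3 motifs. In the longer windows counted below, on either strand, Rps26 also holds CCGGAAG, and Rpl38 and Rps21 also hold CTCTTTC. There Rpl39 holds CCGGAAG and TATAAA, and Rpl35a holds CTCTTTC.

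The table held promoters for 63 of the 83 members. Over 300 bases (250 before to 50 after the start) and on both strands, CCGGAAG was found in 24 of 63 (38.1%), against 9.12% of all 27025 promoters in the table. CTCTTTC was found in 17 (27.0%, against 8.01%), the related stretch CTTTTCC in 10 (15.9%, against 8.13%) and TATAAA in 6 (9.52%, against 14.2%). A run of C and at least 4 further pyrimidines on the gene's strand within the 21 bases around the listed start, which can overlap both pyrimidine stretches, was found in 32 (50.8%, against 25.6%). CCGGAAG lay in 8 of the 23 promoters of members higher in the gut tube, in 1 of the 5 of lower members and in 15 of the 35 of members that did not pass, and the pyrimidine run in 12, 4 and 16 of them. In the same order, CTCTTTC lay in 9, 2 and 6, CTTTTCC in 3, 1 and 6, and TATAAA in 3, 1 and 2. These are letter matches and not binding sites.

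Rpl22l1, a variant of Rpl22 that can take its place in the large subunit, had the steepest rise. It stood at 49.1 and 43.5 CPM in emVE and 162 and 171 CPM in bulk gut tube, a log2 change of 1.85 (SE 0.13, adjusted p = 6.17e-06). Over the 12 gut libraries its lowest, median and highest levels were 156, 199.9 and 241 CPM, all above the 43.5 to 51.4 CPM of the 4 visceral endoderm libraries. Rpl22 itself rose less, from 333 and 307 CPM to 544 and 570.0 CPM (log2 change 0.80, adjusted p = 0.00191). The variant was thus at 3.60-fold and the canonical gene at 1.74-fold its emVE level.

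Rps27l, a variant of Rps27 known as a p53 target, rose from 72.7 and 68.5 CPM to 149 and 155 CPM (log2 change 1.11, adjusted p = 9.74e-05). Rps27 did not pass the test, at 453 and 406 CPM in emVE and 448 and 445 CPM in bulk gut tube (adjusted p = 0.818). Rpl7l1, a biogenesis factor related to Rpl7, and Rpl7 both rose, by log2 0.45 and 0.72. The autosomal variant Rpl36al and its X-linked counterpart Rpl36a did not pass, with log2 differences of -0.28 and -0.03 (adjusted p = 0.177 and 0.918). Thus in each of the pairs Rpl22l1 with Rpl22 and Rps27l with Rps27 the variant had the larger log2 value, and in Rpl7l1 with Rpl7 the canonical gene; the differences within pairs were not tested.

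Rps27rt is a retrogene copy of Rps27 with few counts, and its start region shares letters with that of Rps27. In the 2 windows below, cut as above, capitals mark the stretch both genes share, which goes on to 38 identical bases in the longer windows.
Rps27, chr3:90213629-90213708, minus strand: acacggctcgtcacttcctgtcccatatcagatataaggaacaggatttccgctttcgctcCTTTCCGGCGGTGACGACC
Rps27rt, chr9:114982720-114982799, minus strand: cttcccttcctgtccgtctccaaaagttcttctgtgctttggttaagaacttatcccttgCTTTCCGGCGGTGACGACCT
Rps27rt was at 6.34 and 7.76 CPM in emVE and 3.28 and 4.31 CPM in bulk gut tube and did not pass (adjusted p = 0.0636). Reads of such a near-identical copy could have been split between the 2 genes by the counting, so its level is uncertain.

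Among the large subunit genes that rose, Rpl38 is the one whose mouse mutant Tail-short has a misshapen axial skeleton. It was at 83.1 and 90.1 CPM in emVE and 219 and 209 CPM in bulk gut tube (log2 change 1.30, SE 0.23, adjusted p = 0.00113). The 12 gut libraries ran over 209, 284 and 439.8 CPM (lowest, median, highest), above every visceral endoderm library. Rpl39, a small X-linked protein of the exit tunnel, went from 79.7 and 69.9 CPM to 177 and 188 CPM (log2 change 1.28). X-linked Rpl10, which joins the large subunit late in its assembly, went from 414 and 391 CPM to 812 and 709 CPM (log2 change 0.92, adjusted p = 0.000161). In each of these 3 genes both bulk libraries lay above both emVE libraries, and so did those of Rpl35a (log2 change 1.02) and Rpl13 (0.90). Libraries differed in Xist, the RNA of the inactive X chromosome, which was at 1.43 and 524 CPM in bulk tissue and 730.0 and 484 CPM in emVE, while Y-linked Ddx3y was at 26.5 and 14.3 CPM and 31.1 and 21.1 CPM. The part of this in the values of the X-linked members Rpl39, Rpl10, Rpl36a and Rps4x was not tested.

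Of the small subunit genes, Rps14, whose loss of 1 copy underlies the anaemia of the human 5q- syndrome, rose most. It stood at 374 and 370.4 CPM in emVE and 949 and 968 CPM in bulk gut tube (log2 change 1.36, SE 0.18, adjusted p = 0.000167), and no gut library fell under 949 CPM. Rps21 rose from 189 and 193 CPM to 441 and 389.8 CPM (log2 change 1.12), and Rps19, the gene most often mutated in Diamond-Blackfan anaemia, from 351 and 355 CPM to 682 and 608 CPM (0.87). X-linked Rps4x rose by log2 0.46 (adjusted p = 0.0260). The groups did not overlap for these 4 genes.

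Of the 3 genes of the ribosomal stalk, which recruits the elongation factors, 1 passed. Its base Rplp0 rose, from 1429 and 1547 CPM to 2109.6 and 1805 CPM (log2 change 0.40, adjusted p = 0.0286), while the 2 proteins bound to it did not pass. Rplp1 was at 1331 and 1652 CPM in emVE and 1215 and 1038 CPM in bulk gut tube (log2 difference -0.41, adjusted p = 0.139), and Rplp2 at 442 and 478 CPM against 665 and 566 CPM (0.42, adjusted p = 0.151). The log2 values of Rplp0 and Rplp2 were thus alike. In a fit of the compared groups only, all 3 passed, Rplp0 and Rplp2 as higher and Rplp1 as lower. That fit called 24% of all genes higher and 23.4% lower. Rpsa, the small subunit protein also known as the laminin receptor, had a log2 difference of 0.51 (adjusted p = 0.100). Rps19bp1 was at 22.6 and 24.7 CPM in emVE against 38.1 and 32.2 CPM in bulk gut tube (0.57, adjusted p = 0.0564).

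The 9 members that fell were Rpl23a, Rpl28, Rpl17, Rpl29 and Rpl7a of the large subunit and Rps29, Rps26, Rps24 and Rps28 of the small. Rpl23a, which sits at the mouth of the exit tunnel, dropped from 654 and 629.9 CPM in emVE to 228 and 255 CPM in bulk gut tube (log2 change -1.41, SE 0.12, adjusted p = 1.67e-05). Rps29, a zinc-binding protein of the small subunit head, dropped from 579 and 565 CPM to 235 and 205 CPM (log2 change -1.38, adjusted p = 0.000326). Rps26, which lines the messenger RNA exit channel, dropped from 1161 and 1192 CPM to 699.5 and 625 CPM (log2 change -0.83, adjusted p = 0.00168). For all 3 genes every gut library, dissociated replicate 2 included, lay under every visceral endoderm library. Rpl28 (-0.70) and Rps24 (-0.67) fell in the bulk comparison, but their levels over all gut libraries overlapped those of visceral endoderm. For Rpl28 the overlap came from dissociated replicate 2 alone, at 995 CPM, since the other 11 gut libraries reached at most 582 CPM and visceral endoderm was at 751 to 807 CPM.

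How the authors' counting used strand is not given in the sources used here; 3 of the falling genes, Rpl23a, Rpl28 and Rps28, overlap an exon of a gene on the opposite strand. Tlcd1, which overlaps Rpl23a, was at 9.86 to 20.4 CPM in the gut and 37.0 to 94.8 CPM in visceral endoderm, and Ube2s, which overlaps Rpl28, at 97.8 to 144 and 68.7 to 80.7 CPM. Kank3, which overlaps Rps28, was at 7.69 to 12.4 CPM in the gut and 1.69 to 3.87 CPM in visceral endoderm. The part of these genes in the counts of Rpl23a, Rpl28 and Rps28 was not tested. Over all members, 18 overlap an exon on the opposite strand: 6 of the 33 that rose, 3 of the 9 that fell and 9 of the 41 that did not pass. Host genes of small nucleolar RNAs, which carry these guides of ribosomal RNA modification in their introns, made up 8 of the 33, 3 of the 9 and 19 of the 41.

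**Figure D2:**
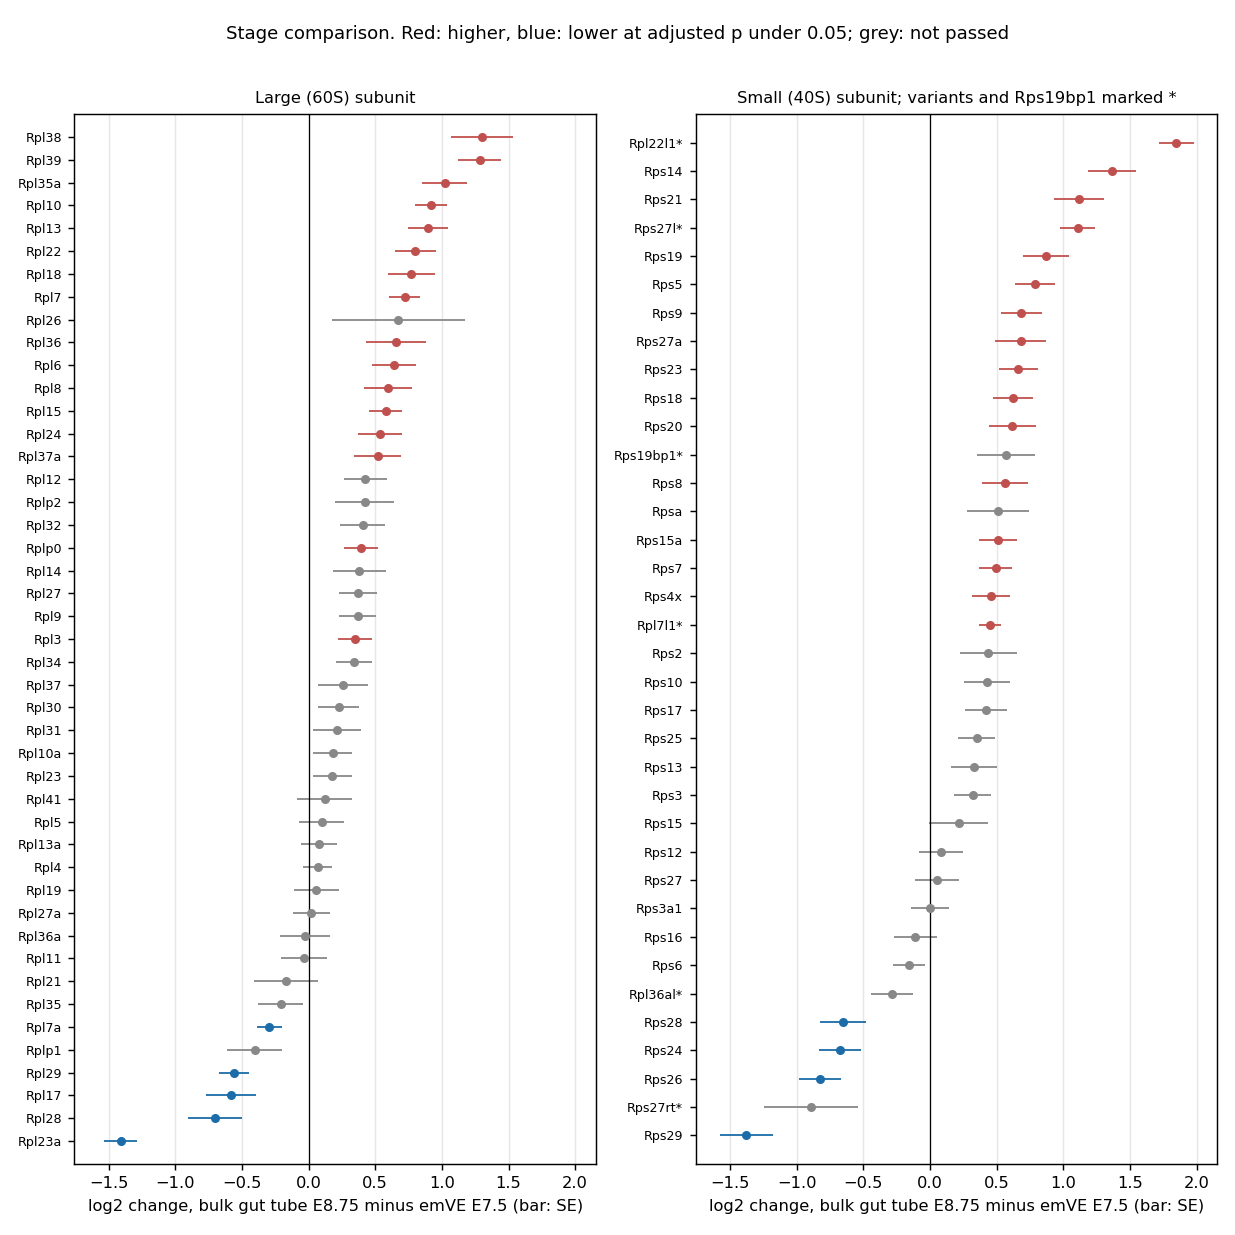
Log2 change of 81 of the 83 genes between bulk gut tube and emVE, with the standard error as a bar; large subunit genes are on the left, small subunit genes and, marked with a star, variants and Rps19bp1 on the right. Red genes rose and blue genes fell at an adjusted p under 0.05, from 1.85 for Rpl22l1 to -1.41 for Rpl23a, and grey genes did not pass.

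Of 17 genes mutated in Diamond-Blackfan anaemia, an inherited failure of red cell production, 5 rose and 4 fell (Rps24, Rps26, Rps28 and Rps29), beside the 21.7% of all genes that were higher and 16.9% that were lower. Of 6 listed genes with mouse mutants that have skeletal, pigment or growth defects, 5 rose (Rpl38, Rpl24, Rps7, Rps19 and Rps20), and Rpl27a had a log2 difference of 0.02 (adjusted p = 0.923). The list does not hold every such gene: Rpl29, whose loss slows growth in mice, was not in it and fell. The median log2 change of the 17 was 0.37, close to that of all members.

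To ask which members changed their part within the family, the test was repeated with the summed member counts as the library size. On that scale 22 members took a larger and 16 a smaller part in the bulk gut tube than in emVE, where 11.3% of all genes were higher and 19.7% lower. Rpl22l1 (log2 1.59, adjusted p = 5.40e-05) and Rps14 (1.11) gained. Rpl23a (-1.67, adjusted p = 4.62e-05), Rps29 (-1.64), Rps26 (-1.09) and Rps28 (-0.91) lost. Values on this scale are centred on the family by construction, and both scales use the same counts. The direction of these 6 genes was the same as on the CPM scale, which changes of this size would keep in any case.

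Over all 12 gut and 4 visceral endoderm libraries, 45 members had every gut library above every visceral endoderm library, as 15.7% of all genes did, and 4 had every gut library below, as 13.7% of all genes did. The 4 were Rpl23a, Rps29, Rps26 and Rpl29. Rpl29, a large subunit protein whose loss slows growth in mice, had gut levels of 94.0, 98.5 and 132 CPM (lowest, median, highest) against 142 to 183 CPM. Levels of the other 34 members overlapped between the stages. Without dissociated replicate 2 the count above stayed at 45 (18.2% of all genes) and the count below went to 9 (15.4% of all genes), with Rpl28 and Rps28 among those added.

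**Figure D3:**
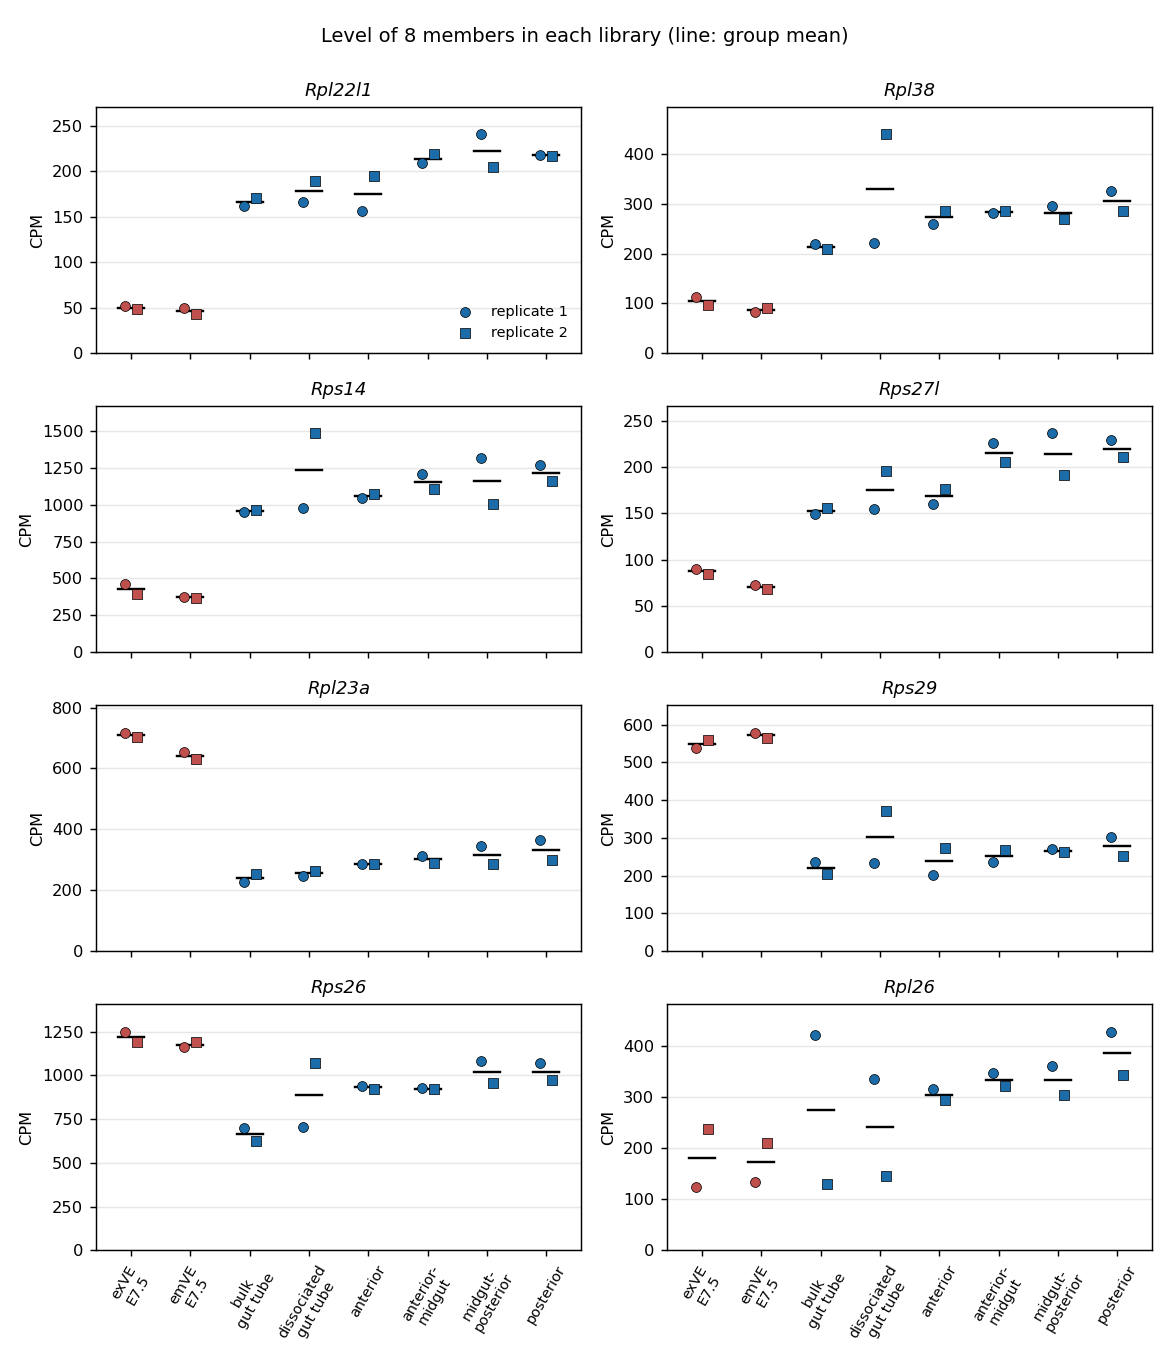
Level in CPM of 8 members in each of the 16 libraries (circles replicate 1, squares replicate 2, line the group mean; red E7.5, blue E8.75). Rpl22l1, Rpl38, Rps14 and Rps27l are higher in every gut library than in visceral endoderm, Rpl23a, Rps29 and Rps26 are lower in every one, and Rpl26 differs most between replicates.

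Other genes of the pathway were compared between emVE and bulk gut tube beside the same background of 21.7% of all genes higher and 16.9% lower. Of 20 tested genes of the translation machinery with TOP messenger RNAs, 8 rose and 2 fell: the ribosome-bound Rack1 rose from 1207 ± 2.63 to 1948 ± 106 CPM (SD, n = 2; log2 change 0.69). Of 30 ribosome biogenesis genes 2 rose and 5 fell, which turned to 5 and 2 when libraries were scaled by their totals. On library totals 26.1% of all genes were higher and 14.2% lower. Of 77 mitochondrial ribosomal protein genes 11 rose and 6 fell (19 and 3 on library totals), and of 13 p53 response genes 4 rose and 1 fell. Of 16 growth regulators 3 rose and 6 fell: Mycn rose from 57.1 ± 2.68 to 138 ± 3.26 CPM (log2 change 1.27), and Larp1 fell from 389 ± 1.31 to 222 ± 11.0 CPM (-0.81, adjusted p = 0.000242). Rheb and Maf1 rose too, and Deptor, Eif4ebp2, Sesn2, Rps6ka1 and Tsc2 also fell. Myc went the other way from Mycn, from 63.9 ± 3.63 to 35.8 ± 4.56 CPM, and did not pass edgeR's test (-0.83, adjusted p = 0.0547).

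At E7.5 few cytoplasmic ribosomal protein genes passed the test between exVE and emVE with TMM scaling, while many mitochondrial ribosomal protein and biogenesis genes did. Of the 83 members 5 were higher in exVE and none lower, where 20.1% of all genes were higher and 23.8% lower. Without adjustment 8 were higher and none lower (p under 0.05, 24.3% of all genes higher). DESeq2 called 8 members higher and none lower, where it called 23.3% of all genes higher and 25.5% lower. Both exVE libraries lay above both emVE libraries for 53 members, as for 6679 of the 17313 genes tested, and below them for 1 member, as for 6428 genes. The median log2 difference was 0.14, and 75 of the 83 were above 0. The direction of this median depends on the scaling: TMM factors were 0.787 and 0.775 in exVE and 0.997 to 1.10 elsewhere, and with library totals alone the median was -0.24 (all genes -0.36), none of the members was higher and 6 were lower (Rpl10, Rpl9, Rps23, Rps27, Rps4x and Rps6). On library totals 7.61% of all genes were higher and 34.1% lower. The members' median was above that of all genes on both scales. Summed visceral endoderm markers, at 30517 and 31690 CPM in exVE against 11908 and 12132 CPM in emVE, and parietal endoderm markers (4 genes), at 1176 and 1349 against 801 and 860.3 CPM, differed between the same libraries, and their part in these values was not tested.

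In exVE Rpl7l1 reached 210.0 and 206 CPM, against 159 and 164 in emVE (log2 change 0.36, SE 0.08, adjusted p = 0.00405). Rpl7a of the large subunit was at 1739 and 1746 CPM against 1349 and 1345 CPM (log2 change 0.37, adjusted p = 0.00649). Rpl4, which reaches into the exit tunnel, was at 2967 and 2919 CPM against 2392 and 2372 CPM (0.31, adjusted p = 0.0403). On library totals these 3 had log2 differences of -0.014, -0.0061 and -0.072, so their call depends on the scaling.

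Rpl36al and Rps19bp1 had the largest differences of the 83. In exVE Rpl36al reached 201 and 183 CPM, against 135 and 128 in emVE (log2 change 0.55, adjusted p = 0.0145), and Rps19bp1 36.0 and 37.6 CPM, against 22.6 and 24.7 (0.64, adjusted p = 0.0324). With the summed member counts as library size both still passed, at 0.39 (adjusted p = 0.0202) and 0.49 (0.0254), and no other member did, where 9.73% of all genes were higher and 23.3% lower. On library totals neither Rpl36al nor Rps19bp1 passed, and Rps19bp1 did not pass without the low-count filter. Over the alternative fits their log2 differences went down to 0.17 and 0.26. Leaving out a single exVE or emVE library gave medians over the 83 members of 0.090 to 0.19. Without dissociated replicate 2, 15 members were higher, where 24.4% of all genes were.

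Of the 77 mitochondrial ribosomal protein genes tested, 52 were higher in exVE and none lower, with a median log2 change of 0.50, beside 20.1% of all genes higher and 23.8% lower, and of 30 ribosome biogenesis genes 22 were higher and none lower (median 0.52). On library totals these counts were 12 higher and 1 lower, and 7 higher and 1 lower, where 7.61% of all genes were higher and 34.1% lower. Bop1, of the PeBoW complex that processes large subunit RNA, averaged 206 ± 1.66 CPM in exVE against 112 ± 15.5 in emVE (SD, n = 2; log2 change 0.87). Nop2, which methylates large subunit RNA, was at 285 ± 8.37 and 171 ± 13.0 CPM (0.74). Of the 16 regulators 10 were higher and 1 lower. Myc, the transcription factor that drives ribosome production, was at 179 ± 9.43 and 63.9 ± 3.63 CPM (log2 change 1.49, adjusted p = 0.00271), and Larp1 at 545 ± 10.1 and 389 ± 1.31 CPM. Eif4ebp2 (log2 change 0.94), Sesn2 (0.84), Mtor (0.64) and Tsc1 (0.53) were among the higher regulators too, and Deptor was the lower one (-1.42). Of 20 translation genes 5 were higher, Eef2 among them at 3752 ± 99.5 and 2972 ± 11.4 CPM, and 3 of 13 p53 response genes were lower. On library totals 5 translation genes and 5 p53 response genes were lower and none higher, beside the 34.1% of all genes that were lower.

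**Figure D4:**
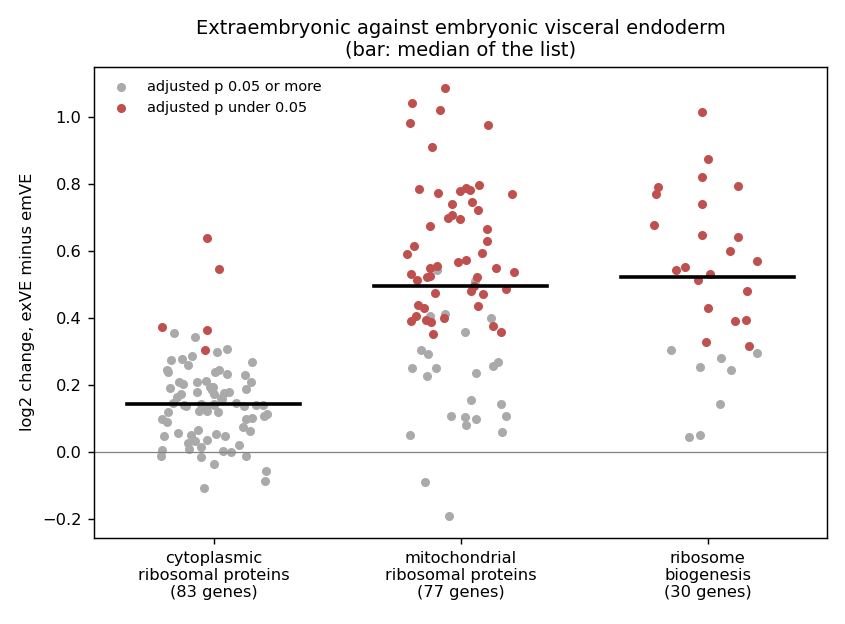
Log2 change between exVE and emVE (vertical axis, TMM scaling) of the 83 members, 77 mitochondrial ribosomal protein genes and 30 biogenesis genes; each point is a gene, red where the adjusted p was under 0.05, and bars are the medians of 0.14, 0.50 and 0.52. The members lie closer to 0 than the other 2 lists, a difference that was not tested.

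No member passed edgeR's test between dissociated cells and bulk tissue of the whole gut tube (0 of 83, and 0% of all 17313 genes). Without adjustment (p under 0.05), 57 members were higher and none lower, where 9.32% of all genes were higher. DESeq2 called 5 members higher, among them Rpl10, Rpl8, Rplp2 and Rps24, where it called 1.03% of all genes higher. The members' median log2 difference was 0.39, but the 2 dissociated libraries differed. Relative to the bulk mean, the median over members was 0.09 in dissociated replicate 1 and 0.68 in replicate 2. Without replicate 2 no member passed and the median was 0.09, and without replicate 1, 74 members were higher with a median of 0.68, where 12.1% of all genes were higher and 14.4% lower.

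In dissociated replicate 2, 81 of the 83 members lay above the bulk mean, but not evenly. It was the highest of the 12 gut libraries for 66 members, as it was for 21.9% of all genes. The acidic stalk protein Rplp2 was at 1418 CPM there against 665 and 566 CPM in bulk tissue, and Rpl38 at 439.8 against 219 and 209 CPM. Rpl35a, at 263 against 276 and 273 CPM, and Rpl15, at 482 against 445 and 499 CPM, did not exceed both bulk libraries. The part that the heart and other marker levels of this library have in its ribosomal protein levels was not tested.

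Rpl26, a large subunit protein that also binds p53 messenger RNA, was the member that differed most between replicates. It was at 421 and 129 CPM in bulk tissue, 336 and 146 CPM in dissociated cells, 124 and 237 CPM in exVE and 134 and 211 CPM in emVE. The larger value was 3.26, 2.30, 1.91 and 1.57 times the smaller in these groups, while over members the median of this ratio was 1.52 in dissociated cells and 1.04 to 1.12 in the other groups. In the 8 sections Rpl26 stayed at 294 to 428 CPM. Its log2 difference between bulk gut tube and emVE, 0.67, had an SE of 0.50 (adjusted p = 0.307).

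Many members were lower in the bulk whole tube than in any of its sections. For 39 of 83 members both bulk libraries lay under all 8 section libraries, as they did for 7.61% of all genes, and for none did both lie above, as for 6.46% of all genes. For 31 of the 39 dissociated replicate 1 also lay under every section. Rps24 was at 562 and 424 CPM in bulk tissue and 720.4 to 915 CPM in the sections, and Rpl35 at 179 and 176 CPM against 254 to 309 CPM, each with a section mean 1.60 times the bulk mean. Over members the median of that ratio was 1.15, and the lowest were Rpl35a at 0.830 and Rpl10a at 0.874. No test was run on this comparison, and the labels name no batch.

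**Figure D5:**
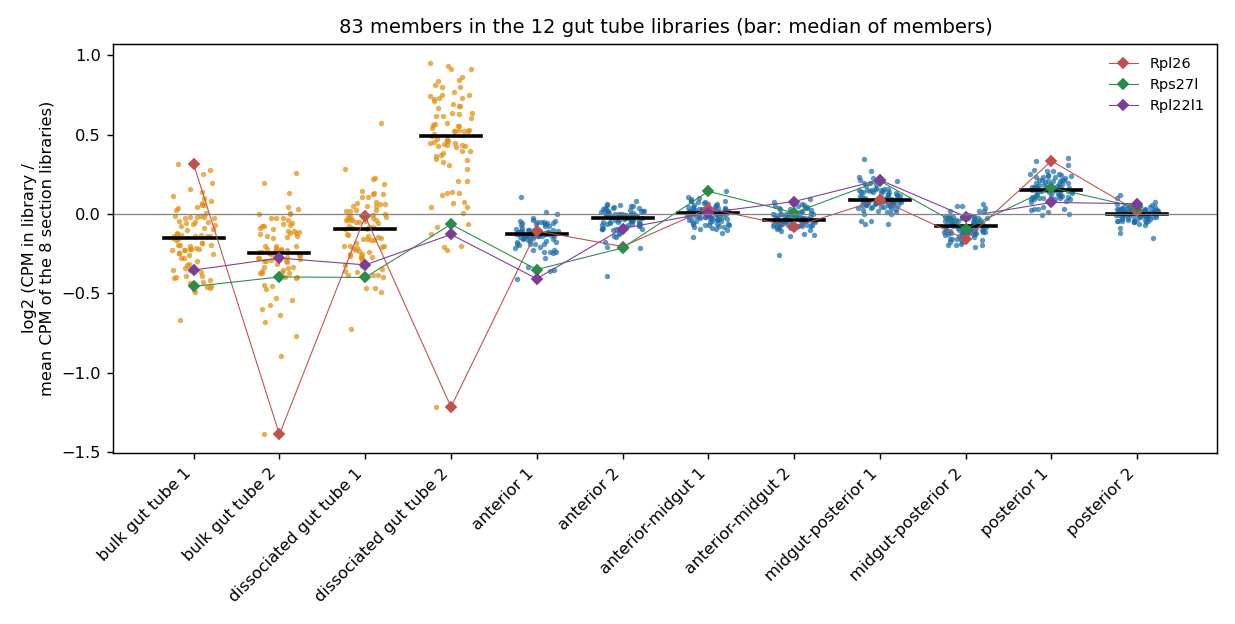
Log2 ratio of each member's CPM to its mean over the 8 section libraries (vertical axis) in each of the 12 gut libraries, with a bar at the median of the 83 members; orange points are whole tube libraries, blue points sections, and lines follow Rpl26, Rps27l and Rpl22l1. The medians are -0.15 and -0.25 in bulk tissue, -0.09 and 0.49 in dissociated cells and -0.13 to 0.15 in the sections.

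Along the tube the members' section means differed by at most 1.32 times. In edgeR's test over the 4 sections no member passed (smallest adjusted p 0.182), where 12.9% of all genes did; 1 member, Rps27l, had an unadjusted p under 0.05 (24.9% of all genes), and DESeq2 called none. In the posterior against the anterior section none passed either, where 4.03% of all genes were higher and 3.89% lower; 2 members (10.1% of all genes higher) had an unadjusted p under 0.05 and DESeq2 called none. Still, all 83 log2 differences were above 0, from 0.04 to 0.39 with a median of 0.16 (all genes 0.01), and 82 were above 0 on library totals. Both posterior libraries lay above both anterior libraries for 47 members, as for 27.8% of all genes, and below them for none, as for 26.3% of all genes. These members share the same 4 libraries, so their common direction is that of 4 samples and not of 83 genes: the family's median relative to the section mean was -0.13 and -0.03 in the anterior libraries and 0.15 and 0.001 in the posterior. Without posterior replicate 1 the median difference fell to 0.081, with 74 of 83 above 0, and without posterior replicate 2 it was 0.25.

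Rps27l had the largest difference between the ends. From anterior to posterior its pairs of libraries were at 160.4 and 176, 226 and 206, 236 and 192, and 229 and 211 CPM, with the 2 anterior libraries under the other 6. The posterior minus anterior log2 difference was 0.39 (SE 0.13, adjusted p = 0.104). Rpl22l1 had pairs of 156 and 195, 209 and 219, 241 and 205, and 218 and 217 CPM (0.31, adjusted p = 0.184), again with both anterior libraries lowest. Without dissociated replicate 2, 2 members passed in this comparison, Rps27l and Rpl13a, where 11.1% of all genes did.

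Of 13 p53 response genes 3 were higher in the posterior than in the anterior section and none lower, where 4.03% of all genes were higher and 3.89% lower. Rps27l, known as a p53 target, did not itself pass, and a link between it and these genes was not tested. Cdkn1a, the cell cycle inhibitor, averaged 59.3 ± 33.0 CPM posteriorly against 5.65 ± 0.285 anteriorly (SD, n = 2), and Ccng1 91.2 ± 24.3 and 38.7 ± 2.87 CPM. Of the regulators Rps6ka1, Deptor and Sesn2 were higher and none was lower, and no gene of the biogenesis, translation or mitochondrial ribosomal lists passed. Posterior libraries also differed from anterior ones in heart markers, at 13.5 and 13.5 against 465 and 791 CPM. The part of the cell mixture in these differences was not tested.

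Between neighbouring sections no member passed in any of the 3 steps, where 5.59%, 0.497% and 2.26% of all genes did (median log2 differences 0.06, 0.03 and 0.07 from anterior to posterior; without adjustment 2 members were higher in the first step, as 9.53% of all genes were, and none in the others; DESeq2 called none). The highest mean lay in the posterior section for 68 members and in midgut-posterior for 15, and the lowest in the anterior section for 65. The ratio of highest to lowest section mean ran from 1.05 for Rps15 to 1.32 for Rplp1. The 2 posterior libraries differed here: posterior replicate 1 was the highest section library for 56 members and posterior replicate 2 for 1. The medians of the steps turn on single libraries. The first was 0.0093 without anterior replicate 1, the middle -0.067 without midgut-posterior replicate 1, and the last -0.0087 without posterior replicate 1 (34 of 83 above 0) and -0.0078 without midgut-posterior replicate 2 (37 of 83).

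Over all 8 groups 61 of 83 members differed (edgeR's test, adjusted p under 0.05), where 71.4% of all genes did, and 68 without adjustment, where 74.8% did. The members' share was near that of all genes. The smallest adjusted p-values were those of Rpl22l1 (3.78e-07), Rpl23a (1.50e-06) and Rps27l (5.22e-06), followed by Rpl39, Rpl10 and Rps14. Within the family 49 members differed (63.8% of all genes), led by Rps29, Rpl23a, Rpl22l1, Rps14, Rps26 and Rps28. The ratio of the highest to the lowest group mean ran from 1.26 for Rps6, the target of the S6 kinases, to 4.82 for Rpl22l1, with dissociated replicate 2 included; in Rps6 the highest mean is that of dissociated cells, at 452 and 584 CPM.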

How the data were processed

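The deposited files hold raw counts per gene symbol, 1 per library; the authors aligned reads with STAR, per the submitters' processing notes, and the version, genome build, annotation, counter and use of strand were not given in the sources used here. Duplicated symbols were summed. Counts were fitted with edgeR 4.0.16 in R 4.3.3 (limma 3.58.1 installed beside it): TMM scaling, a low-count filter (minimum count 10, minimum total 15) that left 17313 genes and over 99.99% of each library's counts, and the quasi-likelihood test with all 16 libraries in 1 model and a coefficient per group (8 residual degrees of freedom). Benjamini-Hochberg adjusted p-values cover all genes tested in a comparison, threshold 0.05, two-sided. There were 7 comparisons of 2 groups, a test over the sections and a test over all groups. A second fit used summed member counts as library size. The fit was tested on simulated data.

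The members, the lists and the marker genes were chosen with earlier results of these data known. Named members were those past the threshold without overlap between groups, up to the 5 largest log2 changes in each direction, those with the smallest p-values where few passed, and always the variants with their counterparts, the stalk genes, Rpsa, Rps19bp1, X-linked members and genes with mouse mutants. Rpl26, Rpl35, Rpl15, Rpl35a, Rpl13, Rpl10a, Rpl29, Rps6 and Rps15 were named after their values were seen. Lists were ribosome biogenesis, TOP-bearing translation genes, growth regulators, p53 response, mitochondrial ribosomal proteins, Diamond-Blackfan anaemia genes and mouse mutant genes. With 2 libraries in a group no outlier rule applies. Alternatives were other scalings, no filter, DESeq2 1.42.0, fits of the compared groups only, a replicate block and leaving out each library. The single values of 2 members are not reported here.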

Additional observations from a re-analysis of the deposited data

How the results depend on the processing

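Between emVE and bulk gut tube 33 members were higher and 9 lower; leaving out single libraries gave 19 to 48 higher and 4 to 12 lower, 48 and 12 without dissociated replicate 2, a fit chosen after seeing the data. Its members' median log2 change of 0.38 was 0.34 with RLE size factors, 0.49 with library totals, 0.34 in a fit of the compared groups only and 0.32 to 0.45 when libraries were left out. Between exVE and emVE the 5 members higher became 0 with library totals (7.61% of all genes), 3 without the low-count filter (12.8%) and 8 with DESeq2 (23.3%). Without dissociated replicate 2, also chosen after seeing the data, 15 were higher (24.4% of all genes). The 0 lower became 6 with library totals (34.1% of all genes) and 1 (Rpl3l) with no count minimum for members. The median of 0.14 between exVE and emVE became -0.24 with library totals, 0.061 without the filter, 0.057 in the fit of the compared groups and 0.090 to 0.19 when libraries were left out. With library totals Rpl7a (-0.0061), Rpl7l1 (-0.014) and Rpl4 (-0.072) changed sign. For dissociated cells against bulk tissue the 0 higher became 5 with DESeq2 and 0 to 74 when libraries were left out, with medians of 0.086 to 0.68. For posterior against anterior the 0 higher became 0 to 2, the 2 without dissociated replicate 2. The median from anterior-midgut to midgut-posterior ran from -0.067 to 0.11. Of the named members past the threshold 14 of 21 between emVE and bulk gut tube stayed past it in every alternative, and 0 of 5 between exVE and emVE. The cause of these shifts was not tested. The labels do not explain the replicate numbers, and the deviations of same-numbered libraries had correlations of -0.11 to 0.22, over 0.1 in 3 of 7 comparisons, so the numbers were not taken as pairs; with a replicate block 31 members were higher and 9 lower between emVE and bulk gut tube, 4 higher between exVE and emVE and 59 differed over all groups, with 0 in the other comparisons, so no count moved by over 1.5 times.

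With 2 libraries in a group the tests rest on a spread shared by all 8 groups, which dissociated replicate 2 widens. Depth, at 57061536 counts or more in each library, does not limit members other than Rps27rt, and the part that the counting of near-identical copies and of genes on opposite strands has in the values was not tested. Levels are relative to a library's other RNA, so changes in the amount of ribosomal protein RNA per cell were not measured.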
